A study of Homo sapiens with 16 samples.

Results

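Cells make cholesterol and fatty acids from acetyl-CoA, and 32 genes of these routes and of their control were followed in 8 human lymphoid cell lines before and after an epigenetic drug treatment. The list of symbols was given by name, and it was chosen with earlier results of these data known. Of the 32, 28 were measured by at least 1 probe set that carries a single gene symbol, among 11963 genes tested. The probe sets of CYP51A1 and FADS1 carry a second symbol, and FDFT1 and ACSL3 had no probe set in the annotation used, so these 4 are not analysed here. Each gene was represented by its brightest probe set, judged by the mean of all 16 arrays. The 28 genes have 53 probe sets in all, 11 genes having 1 and 17 having several.

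Expression was read on HG-U133A arrays, 1 array per line and condition, as log2 values made by robust multi-array average (RMA). The anaplastic large cell lymphoma (ALCL) lines were Karpas 299, SU-DHL-1, JB6 and FE-PD, and the T-cell lymphoma or leukaemia lines were Jurkat, CCRF-CEM, Molt-4 and Molt-3, so that there were 4 groups of 4 arrays. ALCL is a lymphoma of T-cell origin, and each line is a single established culture, with Molt-3 and Molt-4 known to come from the same patient. Treated cells received 1 µM of the DNA methyltransferase inhibitor 5-aza-2'-deoxycytidine for 6 days, with 625 nM of the histone deacetylase inhibitor trichostatin A over the last 24 h. Untreated cells received neither drug, no arm received a single drug, and the effects of the 2 drugs cannot be told apart. All groups were grown in the same medium with serum, a source of cholesterol and fatty acids. The labels held against defining markers before treatment: CD3E, a chain of the T-cell receptor complex, lay between 10.57 and 10.91 in T-cell lines and between 7.20 and 7.96 in ALCL lines, and TNFRSF8 (CD30) between 7.34 and 8.26 and between 11.00 and 12.05. Of the other T-cell and ALCL markers read, CD2 and ALK overlapped between the cell types. CD2 read 6.61 to 9.96 in T-cell and 6.60 to 7.32 in ALCL lines, and ALK 6.09 to 6.40 and 6.39 to 11.10. Each array read RNA from a whole culture, so a lower level in every cell and a low level in some cells cannot be told apart.

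Cholesterol synthesis starts with the mevalonate steps, which lead from acetyl-CoA to the isoprenoid farnesyl diphosphate, goes on through squalene to lanosterol, and ends with the reactions that turn lanosterol into cholesterol. Fatty acid synthesis uses the same acetyl-CoA, made in the cytosol by ACLY. Both routes are controlled by the SREBP transcription factors, which SCAP escorts out of the endoplasmic reticulum when sterols are scarce and which INSIG proteins hold back when sterols are plentiful. Growing leukaemia and lymphoma cells need both products for new membranes.

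Under treatment, more members fell than rose in the T-cell lines. In limma's fit with each line as its own control, 14 of the 28 genes fell and 4 rose at an adjusted p below 0.05, which is 50% and 14.3%, where 20.2% of all genes tested fell and 21.7% rose. The median log2 change of the 28 was -0.66, against 0.14 over all genes. In the ALCL lines 6 fell and 3 rose, 21.4% and 10.7%, where 13.4% of all genes fell and 8.04% rose, and the median was -0.23 against 0.09. The genes that fell in both cell types were FDPS, ACAT2, EBP, SREBF2, FASN and SCD, and TM7SF2 and FADS3 rose in both. Centring the arrays on the hybridisation spikes moved the median of all genes to -0.54 in T-cell and -0.52 in ALCL lines. All 17 members then called in T-cell lines and all 8 called in ALCL lines were lower. Nearly all calls were lower with that centring: over all genes, 2943 were lower and 63 higher in T-cell lines, and 1974 and 73 in ALCL lines. With quantile normalization the ALCL calls were 4 lower and 5 higher, where 1305 of all genes were lower and 1138 higher.

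**Figure D1:**
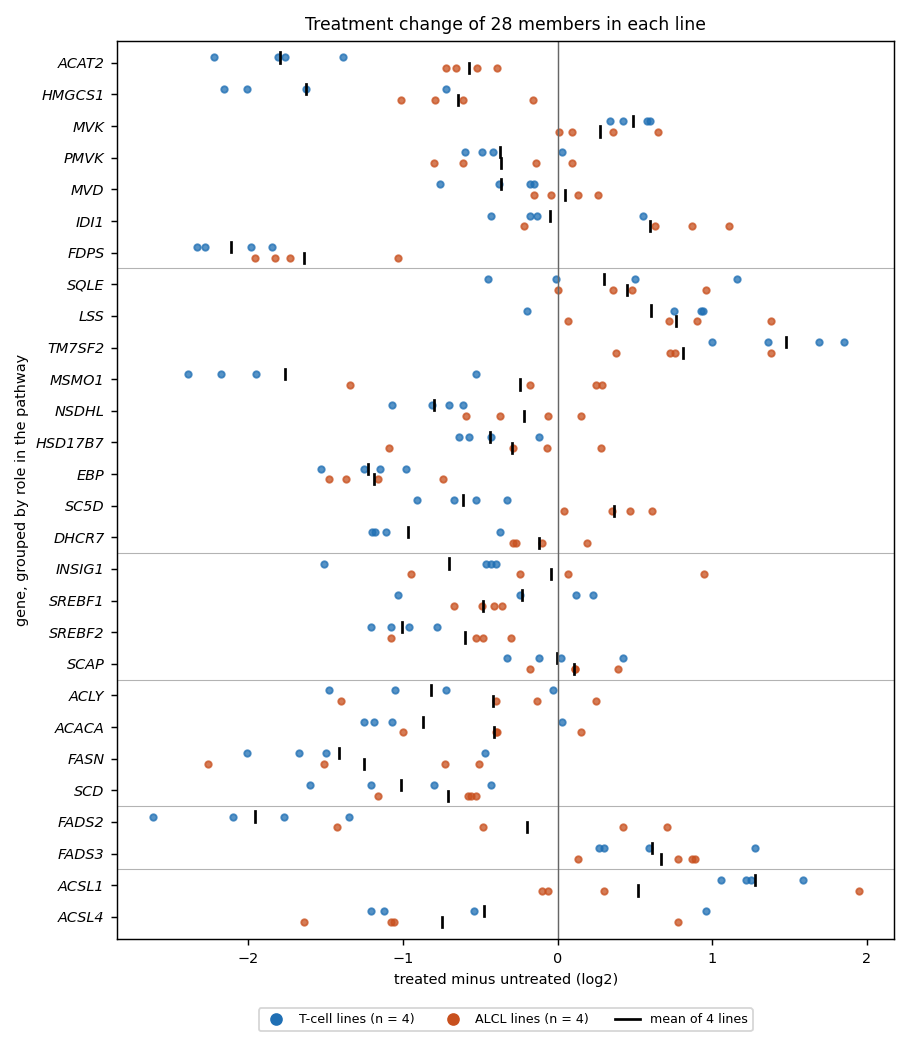
Treatment change (treated minus untreated, log2) of the 28 genes in each line, with T-cell lines in blue, ALCL lines in orange and a black tick at the mean of 4 lines; grey lines part the roles in the pathway. ACAT2, HMGCS1, FDPS, EBP, SREBF2, FASN and SCD lie below 0 in all 8 lines, and MVK, TM7SF2 and FADS3 lie above 0 in all 8, although the T-cell means of MVK and FADS3 turn to -0.20 and -0.07 with arrays centred on the spikes.

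Genes with high untreated values tended to be lower after treatment, which bears on these counts, since the members' median untreated level was 9.08 in T-cell lines and that of all genes 7.18. Among the 2287 genes whose untreated T-cell level lay between the members' quartiles, 8.14 and 9.46, 42% fell and 9.53% rose, with a median change of -0.36. Among 2979 such genes in ALCL lines, 21.2% fell and 7.62% rose, with a median of -0.13. The members' share that fell was thus 50% beside 42% in T-cell lines and 21.4% beside 21.2% in ALCL lines. This comparison was added after the data were seen, and nothing particular to the list is read from the counts.

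Treated arrays also differed from untreated ones as a whole. Values were less spread on treated arrays in 8 of 8 lines (SD 1.60 to 1.81 treated, 1.83 to 1.94 untreated), the 3' minus 5' signal of ACTB was higher in 7 of 8 lines, and the spikes were higher in 7 of 8. The 28S ribosomal RNA control was higher by more than 2 log2 units in Molt-3, Molt-4 and 3 ALCL lines (JB6, FE-PD and SU-DHL-1), and not in Karpas 299, CCRF-CEM or Jurkat. In CCRF-CEM and Jurkat alone, 5 members fell and 2 rose, with a median of -0.59, where 995 of all 11963 genes fell and 501 rose. In Molt-3 and Molt-4 alone, 14 fell and 3 rose, with a median of -0.77, where 2102 genes fell and 1418 rose. In the 3 ALCL lines with the 28S rise, 6 fell and 3 rose, where 1564 genes fell and 787 rose, and Karpas 299 by itself had a median of -0.26. The mean level of 6 T-cell markers was 9.98 to 10.72 in untreated and 7.88 to 8.55 in treated T-cell lines, that of 4 B-cell markers 6.29 to 6.74 and 6.53 to 7.15, and that of 5 myeloid markers 5.01 to 5.25 and 5.22 to 5.63, where the array medians over genes were 7.14 to 7.30. That of 3 erythroid markers was 6.68 to 6.94 and 7.05 to 7.40. In ALCL lines the mean of 5 ALCL markers was 10.61 to 11.65 untreated and 8.83 to 10.80 treated, that of B-cell markers 6.24 to 6.54 and 6.33 to 7.17, that of myeloid markers 5.51 to 5.96 and 5.62 to 6.06, and that of erythroid markers 6.61 to 7.10 and 7.07 to 7.39. The myeloid marker CSF1R by itself read 8.54 to 9.81 in untreated ALCL and 6.30 to 6.98 in untreated T-cell lines. The part of these readings in the members' changes was not tested.

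Within single lines, the members were lower in the greatest number in CCRF-CEM and Molt-4, with 22 of 28 each, followed by Molt-3 with 21 and Jurkat with 18. Of all genes, 41.4% were lower in CCRF-CEM, 41% in Molt-4, 40.1% in Molt-3 and 41% in Jurkat. Among ALCL lines, 17 members were lower in JB6 and in Karpas 299, 16 in SU-DHL-1 and 15 in FE-PD. The shares of all genes that were lower were 43.6% in JB6, 40.4% in Karpas 299, 39.7% in SU-DHL-1 and 56.5% in FE-PD. The median change over members was -0.74 in CCRF-CEM, -0.74 in Molt-3, -0.75 in Molt-4 and -0.35 in Jurkat, so Jurkat stood apart from the other T-cell lines. In ALCL lines the medians were -0.07 in FE-PD, -0.18 in JB6, -0.14 in SU-DHL-1 and -0.26 in Karpas 299. Over all genes the median change was -0.05 in FE-PD and between 0.07 and 0.17 in the other lines. At least 2-fold decreases numbered 12 in CCRF-CEM, 13 in Molt-3, 12 in Molt-4 and 4 in Jurkat, and 3 in FE-PD, 9 in JB6, 5 in SU-DHL-1 and 3 in Karpas 299. JB6 had the most such decreases among ALCL lines, and over all genes it also had the highest share of them there, 13.8% beside 4.24% to 10.2% in the other ALCL lines. In T-cell lines the shares over all genes were 7.38% in CCRF-CEM, 9.14% in Jurkat, 11.8% in Molt-3 and 14.8% in Molt-4.

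Promoter sequence is shown for 6 members because genes of this pathway that moved together are known to share binding boxes for SREBP, NF-Y and Sp1 near their starts. RefSeq windows on GRCh38.p14, from 250 bases before to 50 bases after a start, were found for 25 of the 28 genes (all but ACAT2, SQLE and FASN), 38 windows in all. The 200 bases before the start are given 5' to 3' for 4 genes that fell in T-cell lines (FDPS, MSMO1, EBP, SREBF2) and 2 that rose (MVK, TM7SF2), all on the plus strand. They are FDPS chr1:155308666-155308865, MSMO1 chr4:165327469-165327668, EBP chrX:48521608-48521807, SREBF2 chr22:41832905-41833104, MVK chr12:109573594-109573793 and TM7SF2 chr11:65111672-65111871. Capitals mark the NF-Y box CCAAT on either strand (ATTGG where it lies on the minus strand) and the sterol regulatory element TCACNCCAC.
FDPS: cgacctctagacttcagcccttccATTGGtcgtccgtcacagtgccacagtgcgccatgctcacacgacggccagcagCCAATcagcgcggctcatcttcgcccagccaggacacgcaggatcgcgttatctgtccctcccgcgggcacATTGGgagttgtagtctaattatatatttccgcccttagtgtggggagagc
MSMO1: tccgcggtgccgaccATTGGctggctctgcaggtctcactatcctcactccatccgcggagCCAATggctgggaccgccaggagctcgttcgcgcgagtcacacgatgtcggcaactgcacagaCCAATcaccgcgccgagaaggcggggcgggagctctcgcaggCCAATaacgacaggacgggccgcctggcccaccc
EBP: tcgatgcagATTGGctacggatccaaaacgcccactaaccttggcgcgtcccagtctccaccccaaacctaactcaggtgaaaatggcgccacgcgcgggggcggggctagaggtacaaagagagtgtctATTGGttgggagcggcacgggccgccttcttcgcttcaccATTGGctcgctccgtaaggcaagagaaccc
SREBF2: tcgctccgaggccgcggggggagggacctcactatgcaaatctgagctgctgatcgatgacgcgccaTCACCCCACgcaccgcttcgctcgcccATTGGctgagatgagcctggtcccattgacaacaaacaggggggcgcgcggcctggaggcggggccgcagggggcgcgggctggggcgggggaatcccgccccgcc
MVK: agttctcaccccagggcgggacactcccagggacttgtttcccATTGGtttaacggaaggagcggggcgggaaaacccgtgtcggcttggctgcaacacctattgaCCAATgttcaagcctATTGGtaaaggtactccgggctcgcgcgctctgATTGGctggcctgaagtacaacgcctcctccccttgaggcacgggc
TM7SF2: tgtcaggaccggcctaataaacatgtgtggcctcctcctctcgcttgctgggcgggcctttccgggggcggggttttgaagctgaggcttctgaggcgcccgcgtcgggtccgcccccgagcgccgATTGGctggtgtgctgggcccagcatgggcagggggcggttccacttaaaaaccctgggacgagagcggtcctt

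In these stretches the box CCAAT stands 3 times in FDPS, 4 times in MSMO1, 3 times in EBP, 1 time in SREBF2, 4 times in MVK and 1 time in TM7SF2, so it is found before genes that fell and genes that rose. Over both strands, 25 of the members' 38 windows held it (65.8%), beside 34.6% of all 35116 windows and 35.1% of the 14058 windows of genes on the array. The element TCACNCCAC was found in 2 windows, of SREBF2 and ACSL1 (5.26%, beside 1.13% of all windows). Only this spelling of the element was searched, so a window without it is not read as lacking an SREBP site. The Sp1 box GGGCGG was found in 81.6% of the members' windows, 45% of all and 59.2% of those of array genes, and the E-box CACGTG in 13.2%, 7.26% and 8.76%. Windows of 1 gene can overlap, and a match describes letters only, not binding.

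The largest fall among the mevalonate steps was that of FDPS, the synthase of farnesyl diphosphate, the last common precursor of sterols and prenyl groups. Untreated T-cell lines read 10.93 in CCRF-CEM, 10.39 in Jurkat, 10.18 in Molt-3 and 9.94 in Molt-4, and treated ones 8.60, 8.11, 8.20 and 8.09. Untreated ALCL lines read 10.43 in FE-PD, 9.99 in JB6, 10.11 in SU-DHL-1 and 9.46 in Karpas 299, and treated ones 8.60, 8.03, 8.38 and 8.43. In both cell types every treated array lay below every untreated one, with no overlap. The change was -2.11 ± 0.16 in T-cell lines (4.32-fold lower, adjusted p = 5.4e-05) and -1.64 ± 0.16 in ALCL lines (3.12-fold lower, adjusted p = 0.000247), where the value after ± is the standard error from limma and n = 4 lines. The difference between the changes, 0.47 ± 0.23, was not called (adjusted p = 0.449, 95% interval -0.04 to 0.98). In Karpas 299 alone, the ALCL line without the 28S rise, the change was -1.03, with an adjusted p of 0.158 when that 1 line is assumed to vary like the T-cell lines fitted with it.

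ACAT2 joins acetyl-CoA units in the cytosol at the start of the pathway. Untreated T-cell lines read 10.55 in CCRF-CEM, 9.82 in Jurkat, 10.16 in Molt-3 and 9.96 in Molt-4, and treated ones 8.32, 8.43, 8.41 and 8.15. Untreated ALCL lines read 8.34 in FE-PD, 8.24 in JB6, 8.31 in SU-DHL-1 and 8.65 in Karpas 299, and treated ones 7.68, 7.52, 7.79 and 8.26. All 4 untreated T-cell arrays thus stood above every other array, and the treated T-cell arrays lay in the range of untreated ALCL lines, apart from Molt-4 just below it. In ALCL lines treated Karpas 299 just overlapped the untreated arrays. ACAT2 fell by 1.80 ± 0.14 in T-cell lines (3.47-fold, adjusted p = 5.87e-05) and by 0.57 ± 0.14 in ALCL lines (1.49-fold, adjusted p = 0.0193). The fall was smaller in ALCL lines by 1.22 ± 0.20 (adjusted p = 0.0172), a call that was lost without Molt-3 (1.24, adjusted p = 0.0683) or without Molt-4 (1.22, adjusted p = 0.0588). The ALCL call was lost without JB6 (-0.52, adjusted p = 0.0756) and without SU-DHL-1 (-0.59, adjusted p = 0.0604).

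HMGCS1 makes HMG-CoA, the substrate of the rate-limiting reductase. Untreated T-cell lines read 9.81 in CCRF-CEM, 9.03 in Jurkat, 9.98 in Molt-3 and 8.92 in Molt-4, and treated ones 7.65, 8.31, 7.97 and 7.29. Its treated and untreated T-cell values did not overlap, although Jurkat changed by -0.72 and the other T-cell lines by -2.16, -2.01 and -1.63. The change was -1.63 ± 0.23 (3.10-fold lower, adjusted p = 0.000671). In ALCL lines the changes were -0.16 in FE-PD, -1.01 in JB6, -0.79 in SU-DHL-1 and -0.61 in Karpas 299, all below 0, with a mean of -0.64 ± 0.23 that was not called (adjusted p = 0.0703). A second HMGCS1 probe set, 221750_at, gave -1.36 in T-cell lines (called) and 0.29 in ALCL lines (not called).

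The other mevalonate genes gave smaller differences. MVK, the mevalonate kinase, rose in T-cell lines by 0.48 ± 0.13 (1.40-fold, adjusted p = 0.0174), from 8.93 to 9.04 untreated to 9.33 to 9.62 treated, but read -0.20 when arrays were centred on the spikes, and its call was lost without Molt-3 or Molt-4 (0.45 each, adjusted p = 0.081 and 0.0762). Its other probe sets, 204056_s_at and 215649_s_at, read 0.29 and -0.21 there, neither called. PMVK, the next kinase, changed by -0.37 ± 0.17 in each cell type and MVD, the decarboxylase, by -0.37 ± 0.14 in T-cell and 0.05 ± 0.14 in ALCL lines, none of them called. IDI1, the isomerase that precedes FDPS, read -0.05 ± 0.22 in T-cell lines (0.41 with quantile normalization) and 0.60 ± 0.22 in ALCL lines (adjusted p = 0.863 and 0.0798), and was called in ALCL lines without Karpas 299 (0.87, adjusted p = 0.0152). The gene just before FDPS and FDPS itself thus differed in their readings, although the IDI1 probe set is of a type that can bind related transcripts. Of the 7 mevalonate genes, 3 fell and 1 rose in T-cell lines (42.9% and 14.3%, beside 20.2% and 21.7% of all genes), and 2 fell in ALCL lines (28.6%, beside 13.4%). Among genes between the quartiles of the members' untreated level, 42% fell in T-cell and 21.2% in ALCL lines.

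**Figure D2:**
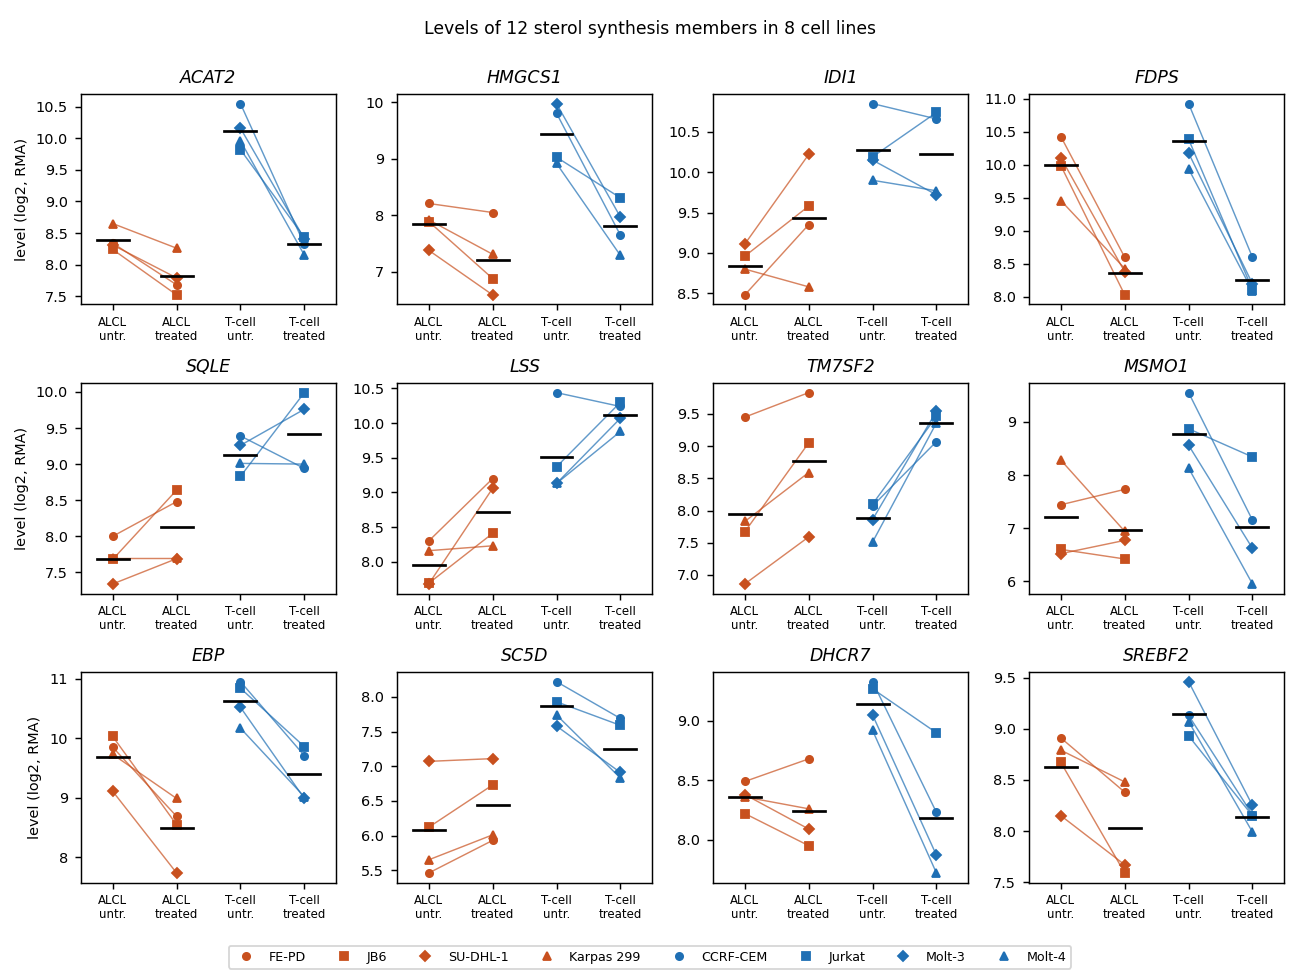
Levels (log2, RMA) of 12 genes of sterol synthesis and its control, each line drawn from its untreated to its treated array, ALCL lines in orange, T-cell lines in blue, with a black bar at the mean of 4; each panel has its own scale. FDPS and EBP drop in all 8 lines, ACAT2 drops in T-cell lines from a range of its own (9.82 to 10.55 untreated), and TM7SF2 climbs in all 8.

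After squalene the readings split. EBP, the sterol isomerase, fell in both cell types. Untreated T-cell lines read 10.95 in CCRF-CEM, 10.84 in Jurkat, 10.52 in Molt-3 and 10.17 in Molt-4, and treated ones 9.71, 9.86, 8.99 and 9.02. Untreated ALCL lines read 9.85 in FE-PD, 10.03 in JB6, 9.11 in SU-DHL-1 and 9.73 in Karpas 299, and treated ones 8.69, 8.55, 7.74 and 8.99. No treated array of a cell type reached an untreated one. The change was -1.23 ± 0.15 in T-cell lines (adjusted p = 0.000376) and -1.19 ± 0.15 in ALCL lines (adjusted p = 0.000732), a difference of 0.04 with a 95% interval from -0.43 to 0.51. Of its other probe sets, 202735_at read -1.20 and -0.94, both called, and 213789_at -0.17 and -0.55, neither called.

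MSMO1, the C-4 methylsterol oxidase, fell in T-cell lines. Untreated arrays read 9.55 in CCRF-CEM, 8.87 in Jurkat, 8.56 in Molt-3 and 8.13 in Molt-4, and treated ones 7.15, 8.34, 6.62 and 5.95. The treated Jurkat array stayed within the untreated range, while the other 3 lines changed by -2.39, -1.95 and -2.18. The change was -1.76 ± 0.33 (3.39-fold lower, adjusted p = 0.00286). ALCL lines did not share a direction: FE-PD read 0.29, JB6 -0.18, SU-DHL-1 0.25 and Karpas 299 -1.34, with a mean of -0.24 ± 0.33 (adjusted p = 0.6). The difference between cell types, 1.52 ± 0.46, was not called (adjusted p = 0.171) but was called without Jurkat (1.93, adjusted p = 0.0469).

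The late sterol genes DHCR7, which makes cholesterol from its last precursor, and NSDHL, a C-4 decarboxylase, also fell in T-cell lines. DHCR7 went from 9.33 in CCRF-CEM, 9.27 in Jurkat, 9.05 in Molt-3 and 8.92 in Molt-4 to 8.23, 8.90, 7.87 and 7.72, without overlap, a change of -0.96 ± 0.16 (adjusted p = 0.00169). NSDHL changed by -0.80 ± 0.15 (adjusted p = 0.00273), between -0.61 and -1.07 in the 4 lines, with overlapping groups. In ALCL lines DHCR7 read -0.12 ± 0.16 and NSDHL -0.22 ± 0.15, neither called. The difference between cell types in DHCR7, 0.85 ± 0.23, was not called (adjusted p = 0.116), but was without Jurkat (1.04, adjusted p = 0.0373), and by the second probe set, 201791_s_at (1.12, adjusted p = 0.033).

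SC5D, a desaturase late in the pathway, was called lower in T-cell lines and not called in ALCL lines. It went from 8.22 in CCRF-CEM, 7.93 in Jurkat, 7.58 in Molt-3 and 7.74 in Molt-4 to 7.69, 7.59, 6.91 and 6.83, a change of -0.61 ± 0.14 (adjusted p = 0.00768), and was above 0 in all 4 ALCL lines (0.47, 0.61, 0.04 and 0.35, mean 0.37 ± 0.14, adjusted p = 0.0832). The groups of T-cell arrays overlapped slightly at Molt-3 untreated and CCRF-CEM and Jurkat treated. The difference of 0.98 ± 0.20 between the cell types was called (adjusted p = 0.0363), but not without FE-PD, JB6, Karpas 299, CCRF-CEM, Molt-3 or Molt-4 (0.88 to 1.01, adjusted p from 0.0647 to 0.141), and the second SC5D probe set, 215064_at, read 0.17 in T-cell and 0.20 in ALCL lines. HSD17B7, a ketoreductase, is read by a probe set that can bind related transcripts and has near-identical copies in the genome. Its values, -0.44 ± 0.20 in T-cell and -0.29 ± 0.20 in ALCL lines, were not called and are uncertain, the T-cell value being called without SU-DHL-1 (adjusted p = 0.0393).

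TM7SF2, a sterol C-14 reductase, rose. Untreated T-cell lines read 8.07 in CCRF-CEM, 8.10 in Jurkat, 7.86 in Molt-3 and 7.51 in Molt-4, and treated ones 9.07, 9.46, 9.54 and 9.36, with no overlap. Untreated ALCL lines ranged widely, 9.45 in FE-PD, 7.67 in JB6, 6.86 in SU-DHL-1 and 7.83 in Karpas 299, and treated ones read 9.83, 9.05, 7.59 and 8.59. Each line was higher after treatment, although the ALCL groups overlapped because FE-PD was high from the start. The change was 1.48 ± 0.18 in T-cell lines (2.78-fold, adjusted p = 0.000416) and 0.81 ± 0.18 in ALCL lines (1.76-fold, adjusted p = 0.0121). The ALCL call was lost without JB6 (0.62, adjusted p = 0.0562), and the difference of -0.66 ± 0.26 was not called (adjusted p = 0.311). With the arrays centred on the spikes the rises were 0.79 and 0.21, neither called.

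LSS, which closes the sterol ring to give lanosterol, rose in ALCL lines by 0.77 ± 0.23 (adjusted p = 0.041), from 8.30 in FE-PD, 7.69 in JB6, 7.68 in SU-DHL-1 and 8.16 in Karpas 299 to 9.20, 8.41, 9.06 and 8.23. Karpas 299 barely differed, and the groups overlapped. That call was lost without SU-DHL-1 (0.56), FE-PD (0.72), JB6 (0.78), Molt-4 (0.77) or Molt-3 (0.77), with adjusted p from 0.0555 to 0.184. The other LSS probe sets, 211019_s_at and 211018_at, read 0.23 each in ALCL lines and 0.29 and 0.28 in T-cell lines, none called. In T-cell lines LSS was higher by 0.93 in Jurkat, 0.94 in Molt-3 and 0.75 in Molt-4 and read -0.20 in CCRF-CEM, a mean of 0.61 ± 0.23 (-0.08 with arrays centred on the spikes) that was not called (adjusted p = 0.0592) but was called without CCRF-CEM (0.87, adjusted p = 0.0164) or Karpas 299 (0.61, adjusted p = 0.0426). Of the 9 measured squalene and sterol genes, 5 fell and 1 rose in T-cell lines (55.6% and 11.1%, beside 20.2% and 21.7% of all genes), and 1 fell and 2 rose in ALCL lines (11.1% and 22.2%, beside 13.4% and 8.04%). For genes between the quartiles of the members' untreated level, 42% fell and 9.53% rose in T-cell lines, and 21.2% and 7.62% in ALCL lines.

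SQLE, the epoxidase that acts before LSS, gave readings that depended on the probe set. The one with the highest mean, 213577_at, changed by -0.45 in CCRF-CEM, 1.16 in Jurkat, 0.50 in Molt-3 and -0.01 in Molt-4, a mean of 0.30 ± 0.24 that was not called (adjusted p = 0.319). The probe set 209218_at went from 10.75 in CCRF-CEM, 10.28 in Jurkat, 10.74 in Molt-3 and 10.62 in Molt-4 to 9.74, 10.20, 9.61 and 9.24, a change of -0.90 ± 0.22 (adjusted p = 0.0122). The third, 213562_s_at, changed by -1.54 ± 0.26 (adjusted p = 0.00218). SQLE thus has no settled direction in T-cell lines, and the mean of its probe sets read -0.71 (adjusted p = 0.027). In ALCL lines the 3 probe sets read 0.45, 0.64 and 0.07, none called.

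**Figure D3:**
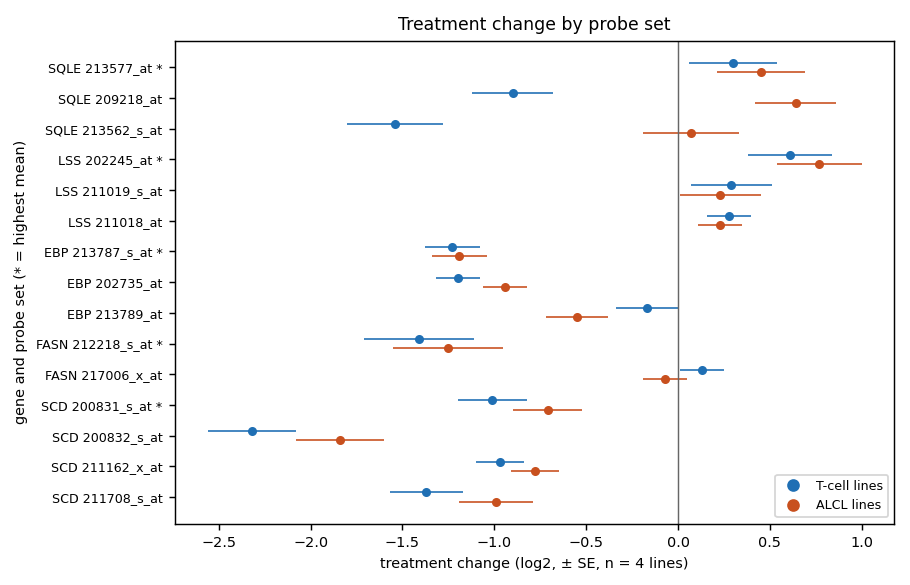
Treatment change (log2, ± standard error, n = 4 lines) of each probe set of SQLE, LSS, EBP, FASN and SCD, with T-cell lines in blue and ALCL lines in orange; an asterisk marks the probe set used for the gene. The 3 SQLE probe sets spread from 0.30 to -1.54 in T-cell lines, while the 4 SCD probe sets all lie below 0 in both cell types.

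Among the control genes, SREBF2, which encodes the SREBP that mainly drives the cholesterol genes, fell in both cell types. Untreated T-cell lines read 9.13 in CCRF-CEM, 8.93 in Jurkat, 9.46 in Molt-3 and 9.07 in Molt-4, and treated ones 8.16, 8.15, 8.25 and 7.99. Untreated ALCL lines read 8.91 in FE-PD, 8.67 in JB6, 8.15 in SU-DHL-1 and 8.79 in Karpas 299, and treated ones 8.38, 7.59, 7.67 and 8.48. The T-cell groups were well apart, while in ALCL lines the treated Karpas 299 and FE-PD arrays stood above the untreated SU-DHL-1 array. The change was -1.01 ± 0.14 (2.01-fold lower, adjusted p = 0.000799) and -0.60 ± 0.14 (1.51-fold lower, adjusted p = 0.0163, and 0.063 at -0.44 without JB6). The second SREBF2 probe set, 201247_at, read -1.13 in T-cell lines (called) and -0.36 in ALCL lines (not called, adjusted p = 0.166).

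SREBF1, whose product favours fatty acid genes, read -1.03 in CCRF-CEM, -0.24 in Jurkat, 0.12 in Molt-3 and 0.23 in Molt-4 in T-cell lines, a mean of -0.23 ± 0.19, and was lower in all 4 ALCL lines, by -0.48 ± 0.19 in the mean, neither called (adjusted p = 0.333 and 0.0968), although the latter was without CCRF-CEM (adjusted p = 0.0282). SCAP read 0.00 ± 0.15 and 0.11 ± 0.15, neither called, though with quantile normalization it was called higher in T-cell lines (0.43, adjusted p = 0.0143). INSIG1, itself a target of the SREBPs, was lower by 1.51 in CCRF-CEM and by 0.40 to 0.46 in the other T-cell lines, in the mean -0.70 ± 0.28, which was not called (adjusted p = 0.0669) but was in 5 of 21 alternatives, among them those without SU-DHL-1 (adjusted p = 0.0359) or Karpas 299 (adjusted p = 0.0426). In ALCL lines it ranged from -0.95 in Karpas 299 to 0.95 in SU-DHL-1.

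By the probe sets used, all 4 genes of saturated and monounsaturated fatty acid synthesis fell in T-cell lines. There 20.2% of all genes fell, and 42% of those between the quartiles of the members' untreated level. FASN, the fatty acid synthase, read 9.43 in CCRF-CEM, 7.26 in Jurkat, 9.50 in Molt-3 and 9.59 in Molt-4 untreated and 7.93, 6.80, 7.83 and 7.58 treated. In ALCL lines it read 9.34 in FE-PD, 9.07 in JB6, 9.76 in SU-DHL-1 and 9.43 in Karpas 299 untreated and 8.61, 6.81, 8.24 and 8.92 treated. Untreated Jurkat lay below every other untreated line, so the T-cell groups overlapped, while the ALCL groups did not. The change was -1.41 ± 0.30 in T-cell lines (2.66-fold lower, adjusted p = 0.00587) and -1.25 ± 0.30 in ALCL lines (2.38-fold lower, adjusted p = 0.0159), the latter lost without JB6 (-0.92, adjusted p = 0.0776) or SU-DHL-1 (-1.17, adjusted p = 0.0674). The dim probe set 217006_x_at of FASN, at 5.90 to 6.42 on all arrays, read 0.13 and -0.07, neither called.

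SCD, the desaturase that makes oleate, read 9.56 in CCRF-CEM, 8.80 in Jurkat, 9.61 in Molt-3 and 9.43 in Molt-4 untreated and 7.96, 8.38, 8.41 and 8.63 treated in T-cell lines. In ALCL lines it read 8.95 in FE-PD, 8.94 in JB6, 8.97 in SU-DHL-1 and 8.81 in Karpas 299 untreated and 8.37, 7.79, 8.41 and 8.27 treated. Groups did not overlap in either cell type. The change was -1.01 ± 0.19 (adjusted p = 0.0032) and -0.71 ± 0.19 (adjusted p = 0.0254), and all 4 SCD probe sets were called lower in both cell types, 200832_s_at by the most, -2.32 and -1.84. The ALCL call of the probe set used was lost without JB6 (-0.56, adjusted p = 0.12) or SU-DHL-1 (-0.76, adjusted p = 0.0635).

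ACLY, which makes cytosolic acetyl-CoA from citrate, and ACACA, the acetyl-CoA carboxylase, were called lower in T-cell lines, although they differed little in Jurkat. ACLY changed by -0.72 in CCRF-CEM, -0.03 in Jurkat, -1.05 in Molt-3 and -1.48 in Molt-4, and ACACA by -1.19, 0.03, -1.07 and -1.25 in the same order. The means were -0.82 ± 0.27 for ACLY (adjusted p = 0.037) and -0.87 ± 0.23 for ACACA (adjusted p = 0.0159). Both calls were lost without CCRF-CEM, Molt-3 or Molt-4, with ACLY between -0.60 and -0.85 (adjusted p from 0.0696 to 0.173) and ACACA between -0.74 and -0.80. In ALCL lines JB6 was lower by 1.40 for ACLY and by 1.00 for ACACA, and the means, -0.42 ± 0.27 and -0.41 ± 0.23, were not called. The second ACACA probe set, 214358_at, read -0.20 in T-cell and -0.02 in ALCL lines, neither called.

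FADS2, the first desaturase of polyunsaturated fatty acid synthesis, fell in T-cell lines from 10.07 in CCRF-CEM, 8.54 in Jurkat, 9.03 in Molt-3 and 8.64 in Molt-4 to 7.45, 6.77, 6.93 and 7.29, with no overlap. This was a change of -1.96 ± 0.32 (3.90-fold lower, adjusted p = 0.00148). In ALCL lines it read 8.52 in FE-PD, 6.06 in JB6, 6.27 in SU-DHL-1 and 8.20 in Karpas 299 untreated and 7.09, 6.77, 6.70 and 7.72 treated. The 2 high ALCL lines were lower and the 2 low ones higher after treatment, so the 8 treated arrays all lay between 6.70 and 7.72. The ALCL mean was -0.19 ± 0.32 (adjusted p = 0.674), and the difference of 1.77 ± 0.45 between cell types was not called (adjusted p = 0.0986) but was called without FE-PD (2.18, adjusted p = 0.0248). FADS3, a related desaturase, rose by 0.61 ± 0.19 in T-cell lines (adjusted p = 0.0289) and by 0.67 ± 0.19 in ALCL lines (adjusted p = 0.0326), above 0 in all 8 lines, although it read -0.07 in T-cell lines when arrays were centred on the spikes. The T-cell call of FADS3 was lost without Jurkat (0.38, adjusted p = 0.119) or Molt-3 (0.61, adjusted p = 0.089), and the ALCL call without FE-PD (0.60, adjusted p = 0.083), JB6 (0.63, adjusted p = 0.115), Karpas 299 (0.59, adjusted p = 0.0988) or Molt-3 (0.67, adjusted p = 0.0522).

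The acyl-CoA synthetases, which activate fatty acids, gave mixed readings. ACSL1 rose in T-cell lines from 6.53 in CCRF-CEM, 7.44 in Jurkat, 6.63 in Molt-3 and 6.36 in Molt-4 to 7.59, 8.66, 7.88 and 7.95, with no overlap, a change of 1.28 ± 0.29 (2.43-fold, adjusted p = 0.00761). Its second probe set rose too, by 1.65. In ALCL lines ACSL1 changed by 1.95 in Karpas 299 and by -0.10 to 0.30 in the other 3, a mean of 0.52 ± 0.29 that was not called (adjusted p = 0.214). The difference from T-cell lines, -0.76 ± 0.41, was not called (adjusted p = 0.491) but was in 2 of 20 alternatives, one of them without Karpas 299 (-1.23, adjusted p = 0.0278). ACSL4, which prefers arachidonate, was lower in 6 of 8 lines and higher by 0.96 in Jurkat and 0.78 in FE-PD, and was called in neither cell type with all lines, but in ALCL lines without FE-PD (-1.26, adjusted p = 0.0401).

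Between the cell types before treatment, 8 of the 16 measured mevalonate and sterol genes were lower in ALCL lines. Of the 28 genes, 8 were lower and 1 higher in untreated ALCL than in untreated T-cell lines, 28.6% and 3.57%, where 5.58% of all genes were lower and 3.18% higher, and the median difference was -0.53 against 0.04 over all genes. These comparisons share the untreated T-cell arrays with the treatment comparison in T-cell lines. The shares of all genes given here are not matched for untreated level. All 8 lower genes belonged to the mevalonate steps (ACAT2, HMGCS1, IDI1) or the squalene and sterol steps (SQLE, LSS, EBP, SC5D, DHCR7). With arrays centred on the spikes, which moved the median of all genes to 0.38, 3 were lower and 2 higher. Over all genes 188 were then lower and 565 higher.

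ACAT2 was lower by 1.74 ± 0.17 (3.33-fold, adjusted p = 0.00105) and HMGCS1 by 1.59 ± 0.28 (3.01-fold, adjusted p = 0.0139), from the values given above and without overlap. IDI1 read 8.48 in FE-PD, 8.96 in JB6, 9.11 in SU-DHL-1 and 8.80 in Karpas 299 in ALCL lines and 10.85 in CCRF-CEM, 10.19 in Jurkat, 10.15 in Molt-3 and 9.90 in Molt-4 in T-cell lines. All ALCL values of IDI1 lay below all T-cell values, with a difference of -1.44 ± 0.22 (adjusted p = 0.00768). SC5D read 5.46 in FE-PD, 6.12 in JB6, 7.07 in SU-DHL-1 and 5.65 in Karpas 299 in ALCL lines, and the difference from T-cell lines was -1.79 ± 0.34 (3.46-fold lower, adjusted p = 0.0175, and 0.0514 at -1.83 without Molt-4). SU-DHL-1 was the ALCL line nearest to the T-cell lines, and still below all of them. The second SC5D probe set, 215064_at, gave a difference of -0.27 that was not called.

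SQLE was lower in ALCL lines by every probe set. The probe set used read 8.0 in FE-PD, 7.68 in JB6, 7.34 in SU-DHL-1 and 7.70 in Karpas 299 in ALCL lines and 9.39 in CCRF-CEM, 8.83 in Jurkat, 9.26 in Molt-3 and 9.01 in Molt-4 in T-cell lines, a difference of -1.44 ± 0.18 (adjusted p = 0.00276). The others gave larger differences, -3.96 ± 0.59 for 209218_at and -3.18 ± 0.29 for 213562_s_at, both called. By 209218_at the ALCL lines split, FE-PD and JB6 reading 8.17 and 7.37 and SU-DHL-1 and Karpas 299 reading 5.55 and 5.46. LSS was lower by 1.56 ± 0.31 (adjusted p = 0.0214, and 0.0557 at -1.47 without JB6), DHCR7 by 0.78 ± 0.12 (adjusted p = 0.00833) and EBP by 0.94 ± 0.24 (adjusted p = 0.0497). Other probe sets gave less: of LSS, 211019_s_at read -0.74 and 211018_at 0.12, and of EBP, 202735_at read -0.84 and 213789_at 0.63, none called. The EBP call was lost in 16 of 18 alternatives, all 8 leave-outs of a line among them (-0.75 to -1.09, adjusted p from 0.0539 to 0.112).

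ACSL1 was the single member higher in untreated ALCL lines, at 8.39 in FE-PD, 7.64 in JB6, 8.88 in SU-DHL-1 and 9.09 in Karpas 299 against 6.53 in CCRF-CEM, 7.44 in Jurkat, 6.63 in Molt-3 and 6.36 in Molt-4. The groups did not overlap, with JB6 and Jurkat nearest to each other. The difference was 1.76 ± 0.35 (3.39-fold, adjusted p = 0.0217), lost without Karpas 299, CCRF-CEM, Molt-3 or Molt-4 (1.57 to 1.72, adjusted p from 0.0501 to 0.0702). The fatty acid synthesis genes gave no called difference: ACLY read -0.02 ± 0.23, FASN 0.45 ± 0.50, SCD -0.44 ± 0.18 and ACACA -0.70 ± 0.22 by the probe sets used. The SCD probe set 200832_s_at was called lower (-1.04 ± 0.19, adjusted p = 0.0164). FADS2, at -1.81 ± 0.63, had groups that did not overlap but was not called (adjusted p = 0.119), nor was MSMO1 at -1.57 ± 0.44 (adjusted p = 0.0672). Some of the uncalled differences were called with 1 line left out: SCD (-0.62, adjusted p = 0.0153) and ACACA (-0.90) without Jurkat, INSIG1 (-1.56, adjusted p = 0.0189) and ACSL4 (1.34, adjusted p = 0.037) without FE-PD, and MSMO1 (-1.93, adjusted p = 0.0295) without Karpas 299.

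**Figure D4:**
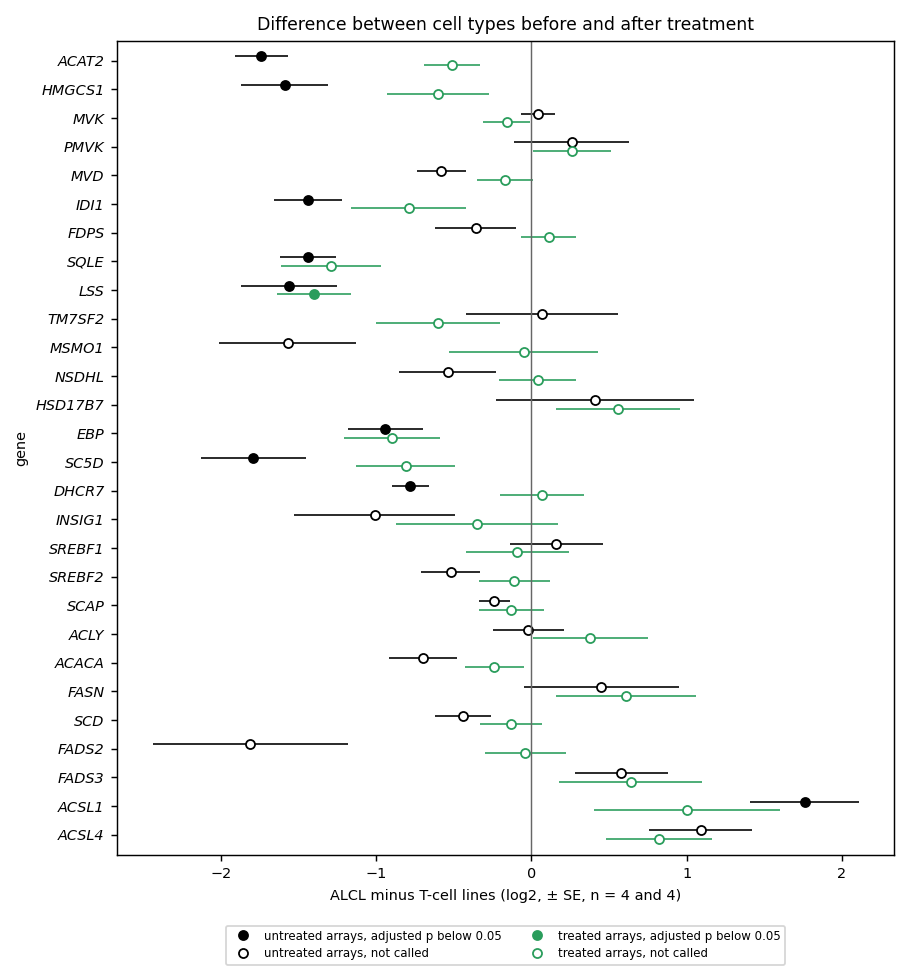
Difference between ALCL and T-cell lines (log2, ± standard error, n = 4 and 4) for each of the 28 genes, on untreated arrays in black and treated arrays in green; filled points have an adjusted p below 0.05. ACAT2 reads -1.74 untreated and -0.51 treated and DHCR7 -0.78 and 0.07, while LSS reads -1.56 and -1.40 and SQLE -1.44 and -1.29.

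After treatment the cell types differed in 1 member, LSS, which was lower in ALCL lines by 1.40 ± 0.24 (2.63-fold, adjusted p = 0.0157), where 1.53% of all genes were lower and 1.35% higher. Treated ALCL lines read 9.20 in FE-PD, 8.41 in JB6, 9.06 in SU-DHL-1 and 8.23 in Karpas 299 and treated T-cell lines 10.24 in CCRF-CEM, 10.30 in Jurkat, 10.07 in Molt-3 and 9.88 in Molt-4, with no overlap. That call was lost without CCRF-CEM (-1.36, adjusted p = 0.0531) or Molt-3 (-1.41, adjusted p = 0.0603), and the LSS probe set 211018_at read 0.07. SQLE, at -1.29 ± 0.32, and EBP, at -0.90 ± 0.31, had groups that did not overlap without being called (adjusted p = 0.0691 and 0.174), while the SQLE probe set 213562_s_at was called (-1.57, adjusted p = 0.0186). ACAT2 read -0.51 ± 0.18, HMGCS1 -0.60 ± 0.33, SC5D -0.81 ± 0.32 and DHCR7 0.07 ± 0.27, none called, and the median over the 28 was -0.12 against -0.03 over all genes. The loss of a call does not show that the difference changed: the test of that is the difference between the treatment changes, in which ACAT2 and SC5D were called, where 1.11% of all genes were called higher and 0.568% lower. The median of that difference over the members was 0.35, against -0.05 over all genes, with 23 above 0 and 5 below. The members' median untreated level was 9.08 in T-cell and 8.44 in ALCL lines. Genes between the quartiles of those levels had a median change of -0.36 in T-cell and -0.13 in ALCL lines. Nothing particular to the list is therefore read from the members' median difference or its signs. Without Jurkat 5 members were called, ACAT2, SC5D, HMGCS1 (1.30, adjusted p = 0.0429), MSMO1 and DHCR7. With Molt-3 and Molt-4 averaged into 1 line neither was called in limma, and 7 members had an unadjusted p below 0.05.

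Genes next to the pathway were taken from 6 lists, and the shares of all genes given beside them are not matched for untreated level. The isoprenoid branch uses farnesyl diphosphate for ubiquinone, dolichol and protein prenylation. Of its 10 measured genes 8 fell in T-cell lines (median -0.63) and 5 in ALCL lines (median -0.48), and limma called none higher (1 and 0 at an unadjusted p below 0.05), where 20.2% and 13.4% of all genes fell. The other measured genes include DHDDS, of dolichol synthesis, at 0.32 ± 0.12 in T-cell and 0.22 ± 0.12 in ALCL lines, neither called. PDSS1, which builds the ubiquinone tail, fell in T-cell lines from 9.19 in CCRF-CEM, 8.03 in Jurkat, 9.63 in Molt-3 and 9.66 in Molt-4 to 6.96, 7.26, 6.91 and 7.01, a change of -2.09 ± 0.29 (4.26-fold lower, adjusted p = 0.000674). FNTA, a subunit of farnesyl and geranylgeranyl transferases, fell by 1.28 ± 0.17 in T-cell and by 0.85 ± 0.17 in ALCL lines. GGPS1, which makes geranylgeranyl diphosphate, fell by 0.88 ± 0.17 in T-cell lines and read 0.11 ± 0.17 in ALCL lines (not called), and RABGGTB, a subunit of the Rab prenyltransferase, by 1.03 ± 0.19 in ALCL lines.

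**Figure D5:**
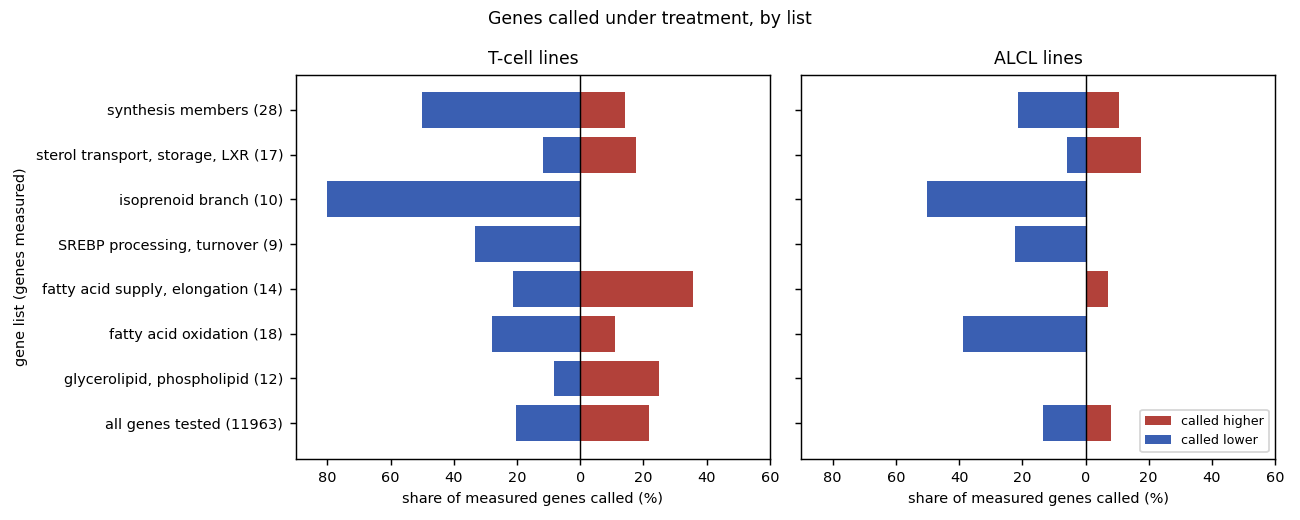
Share of measured genes called higher (red, to the right) and lower (blue, to the left) under treatment in T-cell lines and in ALCL lines, for the synthesis members, 6 neighbouring lists and all genes tested, with the number measured in brackets. The isoprenoid branch has 80% lower in T-cell lines and 50% in ALCL lines, beside 20.2% and 13.4% of all genes, which are not matched for untreated level.

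Of 17 genes of sterol transport, storage and the oxysterol receptor LXR, 3 rose and 2 fell in T-cell lines, and 3 rose and 1 fell in ALCL lines. These were 17.6% and 11.8% in T-cell lines, below the 21.7% and 20.2% of all genes, and 17.6% and 5.88% in ALCL lines, beside 8.04% and 13.4%. NPC1, which moves cholesterol out of lysosomes, rose in T-cell lines from 7.56 in CCRF-CEM, 7.79 in Jurkat, 7.32 in Molt-3 and 7.17 in Molt-4 to 11.66, 10.78, 9.63 and 9.27, by 2.87 ± 0.32 (7.33-fold, adjusted p = 0.000261). Within T-cell lines no treated array was near an untreated one, but untreated JB6, SU-DHL-1 and Karpas 299 read 9.34, 9.74 and 9.55. The NPC1 change in ALCL lines, 0.98 ± 0.32, was not called (adjusted p = 0.0538). The lysosomal acid lipase gene LIPA rose by 1.14 ± 0.17 and NPC2, the partner of NPC1, by 1.13 ± 0.24 in ALCL lines. ABCG1, a sterol exporter and LXR target, fell by 1.00 ± 0.29 in T-cell lines, and LRP8, a lipoprotein receptor, fell by 0.89 ± 0.16 there and by 0.80 ± 0.16 in ALCL lines. Before treatment ABCA1, another exporter and LXR target, was 3.47-fold higher in ALCL lines (adjusted p = 0.00307).

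Of 9 genes of SREBP processing and turnover, 3 fell in T-cell lines (AUP1 by 1.19, RNF139 by 1.12 and MBTPS1, the site-1 protease, by 0.72) and 2 in ALCL lines (AUP1 by 0.77 and INSIG2 by 0.54), 33.3% and 22.2% beside 20.2% and 13.4% of all genes. Of 14 genes of fatty acid supply, elongation and further synthetases, 5 rose and 3 fell in T-cell lines (35.7% and 21.4%, beside 21.7% and 20.2% of all genes) and 1 rose in ALCL lines (7.14%, beside 8.04%). ACSBG1, an acyl-CoA synthetase, was the most changed of these, at 5.77 in CCRF-CEM, 5.68 in Jurkat, 5.68 in Molt-3 and 5.77 in Molt-4 untreated and 9.48, 9.45, 7.47 and 7.40 treated in T-cell lines, a rise of 2.72 ± 0.35 (adjusted p = 0.00047). ACSL5 and ACSL6, further synthetases, rose by 0.81 ± 0.21 and 0.54 ± 0.14 there, while ACSL4 read -0.48.

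Of 18 genes of fatty acid oxidation, 2 rose and 5 fell in T-cell lines, and 7 fell in ALCL lines. The shares that fell were 27.8% and 38.9%, beside 20.2% and 13.4% of all genes, and the share that rose in T-cell lines was 11.1%, beside 21.7%. DECR1, which handles unsaturated chains, fell by 2.24 ± 0.21 in T-cell lines (4.72-fold, adjusted p = 0.000127). ECI1, an enoyl-CoA isomerase, fell in ALCL lines from 8.53 in FE-PD, 8.60 in JB6, 8.06 in SU-DHL-1 and 9.76 in Karpas 299 to 6.95, 6.45, 6.34 and 7.65, by 1.89 ± 0.18 (3.70-fold, adjusted p = 0.000225). Untreated T-cell lines already read between 5.73 and 6.69, and the change in ALCL lines differed from theirs by -1.91 ± 0.25 (adjusted p = 0.00626). Of 12 genes of glycerolipid and phospholipid synthesis, 3 rose and 1 fell in T-cell lines (25% and 8.33%, beside 21.7% and 20.2% of all genes). In ALCL lines, where 8.04% of all genes rose and 13.4% fell, limma called none of the 12. At an unadjusted p below 0.05 in limma, 1 was higher and 2 lower there. CEPT1, which makes phosphatidylcholine and phosphatidylethanolamine, fell by 0.81 ± 0.20 in T-cell lines.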

How the data were processed

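HG-U133A arrays of 8 cell lines, untreated and treated, gave 16 arrays. The deposited values are log2 summaries of 22283 probe sets, for which the submitters' processing notes name RMA and R 2.10.1. Filters and probe set definitions are not stated and scanner data were not used here, so no detection call is made. The small number of arrays limits the precision. Symbols came from the platform's annotation (19065 probe sets with 1 symbol, control probe sets left out). For each of 11963 genes the probe set with the highest mean was tested with limma 3.58.1 in R 4.3.3 (lmFit and eBayes, two-sided, Benjamini-Hochberg over all genes, called below 0.05).

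Treatment was fitted in one model of the 16 arrays, blocked by line (6 residual degrees of freedom), and cell types were compared on 8 arrays of 1 condition. The pairing follows from the cell line names. A line's untreated and treated deviations from the group means correlated at 0.33 to 0.643 across genes, Molt-4 at 0.33 with itself and 0.399 with Molt-3. With 1 culture per line and condition, p-values measure the spread between lines. The members, lists and tests were chosen with earlier results of these data known, and no list was tested. All members are named, and of each neighbouring list up to 3 genes with the smallest adjusted p in a comparison. The code was tested on simulated data. Alternatives were other blocks, probe set means, a filter on the lowest 40%, 4 other scalings, an intensity trend, each line left out, lines with or without the 28S rise (over 2 log2 units), and, chosen after seeing the data, Molt-3 and Molt-4 as 1 line and genes of like level. Promoters are RefSeq's on GRCh38.p14.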

Additional observations from a re-analysis of the deposited data

Results flagged for a closer look

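In 168 groups of 4 values (levels of each member in each group, and changes in each cell type), 9 had 1 line far from the other 3, which is 5.36%, where chance alone flags about 1 in 20. In T-cell lines 3 of these were changes or levels of Jurkat: DHCR7 changed by -0.37 in Jurkat and by -1.20 to -1.11 in the others, ACACA by 0.03 against -1.25 to -1.07, and FASN read 7.26 untreated against 9.43 to 9.59. CCRF-CEM stood apart in LSS, which changed by -0.20 against 0.75 to 0.94, and in INSIG1, at -1.51 against -0.46 to -0.40. In ALCL lines NSDHL read 7.72 in untreated SU-DHL-1 against 6.71 to 6.87, and SCD 8.81 in untreated Karpas 299 against 8.94 to 8.97. SCD changed by -1.16 in JB6 against -0.58 to -0.53, and FADS3 by 0.13 in SU-DHL-1 against 0.78 to 0.89.

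The treatment change differed between the cell types, by the test of that difference in limma, for 2 members. ACAT2 fell less in ALCL lines, by 1.22 (adjusted p = 0.0172), and SC5D, which fell in T-cell lines and was above 0 in each ALCL line, differed by 0.98 (adjusted p = 0.0363). Both calls were lost when Molt-3 or Molt-4 was left out. Of 20 alternatives, 7 lost the ACAT2 call and 14 the SC5D call. By the second SC5D probe set, 215064_at, the difference was 0.03 and not called.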

How the results depend on the processing

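In T-cell lines 18 members were called under treatment, and ACAT2, FDPS, EBP, SREBF2 and FADS2 kept their call and direction in all 21 alternatives. In ALCL lines 9 were called and none kept its call in all 21, FDPS and EBP losing theirs only where Karpas 299 alone is left. Of 9 calls between untreated cell types, 1 between treated ones and 2 of the difference between changes, none was kept in every alternative. The cause of these shifts was not tested.

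Without the replicate block, the ALCL treatment calls were 3 and the calls of the difference between changes 1. With a random block they were 7 and 1. Quantile normalization gave a T-cell median of -0.46, a median difference of 0.19 and 0 calls of it (6 at an unadjusted p below 0.05 in limma). Spike centring gave medians of -1.34 (T-cell) and -0.84 (ALCL), 0 calls of the difference (3 unadjusted), 5 calls between untreated cell types with a median of -0.19, and 0 between treated ones (4 unadjusted) with a median turned to 0.30. Between treated cell types the mean of probe sets gave 0 calls (6 unadjusted) and the filter 2.

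With 1 line left out, the calls ranged from 14 to 20 for T-cell treatment and from 2 (without JB6) to 10 for ALCL treatment, 5 without SU-DHL-1, with ALCL medians of -0.33 to -0.19. The difference between changes ranged from 0 (without Molt-3 or Molt-4, 7 unadjusted each) to 5 (without Jurkat), with 1 without JB6 or CCRF-CEM. Treated cell types gave 0 (without CCRF-CEM or Molt-3, 4 and 5 unadjusted) to 1. In lines without the 28S rise the calls were 7 (T-cell), 0 (ALCL, 4 unadjusted), 0 (difference, 6 unadjusted), 0 (untreated, 15 unadjusted, median -0.84) and 0 (treated, 6 unadjusted), and in lines with it 3 (untreated) and 0 (treated, 4 unadjusted). Molt-3 and Molt-4 as 1 line gave 0 calls of the difference (7 unadjusted).

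Among members called with the main setting or with the alternative, directions in T-cell lines turned for SQLE with the mean of probe sets (-0.71), SCAP with quantile normalization (0.43), and MVK (-0.20) and FADS3 (-0.07) with spike centring. The uncalled LSS (-0.08, spike centring), IDI1 (up to 0.41), SREBF1 (up to 0.18) and ACSL4 (up to 0.21) also changed sign without a call.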
